A study of Mus musculus with 365 samples.

Results

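The genes described here are 44 genes of mitosis and of the G2/M phase, the stretch of the cell cycle from the end of DNA replication to cell division. They were given as a list of symbols, with no measured value in the rule, though by that time earlier results of these data were known. All 44 were found among the 23427 genes of the count table. They divide into 9 groups by role: chromosome structure, kinetochore, spindle checkpoint, chromosomal passenger complex, cyclin B and mitotic kinases, the anaphase-promoting complex, spindle, kinesin motors and cytokinesis. All 44 passed the filter on low counts in each test below.

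The cells were EPLM, early bone marrow progenitors with lymphoid and myeloid potential, sorted from the femurs of C57BL/6 mice with a Flt3 ligand transgene (Flt3Ltg), which both populations carry. A total of 213 cells were TN (triple negative) and 152 were Ly6D+, and every label names pooled mice, 2 to a pool. Each population filled 3 capture chips of its own, with 75, 69 and 69 TN cells on chips 1, 2 and 3 and 40, 60 and 52 Ly6D+ cells on chips 4, 5 and 6. The ligand is known to expand such progenitors, so the cells are not those of unmodified animals. The labels do not say which mice filled which chip, or whether the chips of a population share a pool.

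In a dividing cell, cyclin B with its kinase Cdk1 drives entry into mitosis, kinetochores tie chromosomes to the spindle, and the checkpoint holds the cell until all are attached. The anaphase-promoting complex then marks cyclin B for destruction, and the cell divides by cytokinesis. Most of these genes are silent in resting cells. They are transcribed late in the cycle, through the MuvB complexes (with B-Myb and FoxM1) at a promoter element named CHR and through NF-Y at CCAAT boxes. In lymphoid progenitors, division is known to stop while the recombinase genes Rag1 and Rag2 are active. Dntt encodes the terminal transferase that adds bases at the joints of receptor genes, Ctsh encodes the protease cathepsin H, and Mpo and Prtn3 encode granule proteins of the myeloid lineage.

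Promoters are shown because the members varied together from cell to cell, as described further on. RefSeq's table for GRCm38.p6 held a promoter for 38 of the 44 members. The 250 bases before the start were searched on both strands for TTTGAA and TTCGAA, forms of the CHR, and for CCAAT. Each match was counted, also where motifs overlapped. TTTGAA was found in 13 of 38 promoters (34.2%), against 16.3% of the 27025 promoters in the table. TTCGAA was found in 2 (5.26%, against 1.34%). CCAAT was found in 26 (68.4%, against 34.5%), and 17 held it at least 2 times (44.7%, against 10.5%). A CHR form and a CCAAT stood together in 12 (31.6%, against 6.21%). CCAAT was nearly as frequent among 65 promoters of other mitotic genes (66.2%) and 35 promoters of DNA replication and G1/S genes (60%), and was found in 21.4% of 14 myeloid promoters. A CHR form with a CCAAT stood in 30.8% of the other mitotic, 14.3% of the G1/S and 0% of the myeloid promoters. For TTTGAA these shares were 35.4%, 14.3% and 21.4%. The 4 promoters below are those of Top2a, the member found in most cells, of Cdk1 and its partner Ccnb2, and of Knstrn, which followed the other members least but for Anln and Ckap2. Each is written 5′ to 3′ on the strand of its gene, up to the base before the start, with matches to any of the motifs, on either strand, in capitals.
Top2a: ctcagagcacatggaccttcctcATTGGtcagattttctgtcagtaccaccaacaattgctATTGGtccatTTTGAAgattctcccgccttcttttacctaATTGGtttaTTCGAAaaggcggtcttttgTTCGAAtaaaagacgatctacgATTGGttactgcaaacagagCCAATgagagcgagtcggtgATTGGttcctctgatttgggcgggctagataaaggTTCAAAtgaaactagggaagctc
Cdk1: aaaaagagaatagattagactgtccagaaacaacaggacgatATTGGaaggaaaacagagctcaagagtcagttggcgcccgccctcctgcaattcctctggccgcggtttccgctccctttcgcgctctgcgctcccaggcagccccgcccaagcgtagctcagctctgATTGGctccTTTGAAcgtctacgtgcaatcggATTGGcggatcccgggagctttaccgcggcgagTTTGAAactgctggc
Ccnb2: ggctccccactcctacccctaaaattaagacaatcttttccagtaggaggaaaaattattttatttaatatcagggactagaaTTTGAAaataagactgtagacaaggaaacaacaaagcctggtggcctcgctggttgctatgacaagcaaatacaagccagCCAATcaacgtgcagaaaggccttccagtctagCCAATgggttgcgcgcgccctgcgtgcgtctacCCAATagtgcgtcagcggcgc
Knstrn: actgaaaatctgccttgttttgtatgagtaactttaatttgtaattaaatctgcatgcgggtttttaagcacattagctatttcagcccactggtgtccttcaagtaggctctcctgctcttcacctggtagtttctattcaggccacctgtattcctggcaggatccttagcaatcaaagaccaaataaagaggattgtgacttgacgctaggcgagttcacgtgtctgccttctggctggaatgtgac
Top2a (chr11:99024190-99024439, minus strand, GRCm38.p6) held 6 CCAAT matches, 2 of TTTGAA and 2 of TTCGAA, the nearest CHR form beginning 23 bases before the start. Cdk1 (chr10:69352913-69353162, minus strand) held TTTGAA 71 and 15 bases before the start and CCAAT matches at 208, 80 and 48. Ccnb2 (chr9:70421555-70421804, minus strand) held CCAAT at 87, 54 and 21 bases, and TTTGAA at 167. Knstrn (chr2:118813753-118814002, plus strand) held none of these letters in this window. Birc5, which followed the other members most closely (Spearman rho 0.76), held none either, nor did Nusap1 (0.71) or Anln (0.41). Mki67 (0.71) and Ckap2, which followed least (0.37), both held TTTGAA and CCAAT. Whether motifs go with how closely a member followed the others was not tested. A match describes the sequence and does not show that a factor binds there.

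Cells held between 267852 and 1854600 reads, and chip medians lay between 750934 and 1000070. For counts per cell, each cell was thinned to 200000 reads, and a gene was called detected at 5 reads or more, which is 25 CPM (counts of a gene scaled to a library of 1000000 reads). Sums over chips followed the labels. Ly6d stood at 82.8, 167 and 282 CPM on the TN chips and at 3042, 2855 and 2561 CPM on the Ly6D+ chips. Ptprc and Kit, which encode surface proteins known on EPLM, were detected in 79.7% and 33.1% of TN cells, against 89.5% and 22.6% in Ly6D+. Of 6 erythroid markers, 5 had no read in any cell. Xist, which is transcribed in female cells, was detected in 41 cells of TN chip 2 and in none elsewhere, so the 3 TN chips did not hold the same mix of mice. Those 41 cells held 12.4 mitotic genes each on average, and the other 28 cells of the chip 12.9. Without them the mean over TN chips was 13 genes per cell, against 12.9 with them. Fewer cells in division and less RNA per dividing cell cannot be told apart in sums over a chip.

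Mitotic genes were found in part of the cells of every chip. Top2a, the topoisomerase that untangles chromosomes, was detected in 58.7, 63.8 and 63.8% of the cells on TN chips and in 65, 51.7 and 59.6% on the Ly6D+ chips, so the populations overlapped. Mki67, which coats mitotic chromosomes, was detected in 61.3, 62.3 and 62.3% in TN and 55, 43.3 and 46.2% in Ly6D+, every Ly6D+ chip below every TN chip. Kif2c, a kinesin that takes microtubules apart, was at the other end, found in 12.7% ± 5.83 in TN and 8.29% ± 3.27 in Ly6D+ (SD, n = 3 chips).

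**Figure D1:**
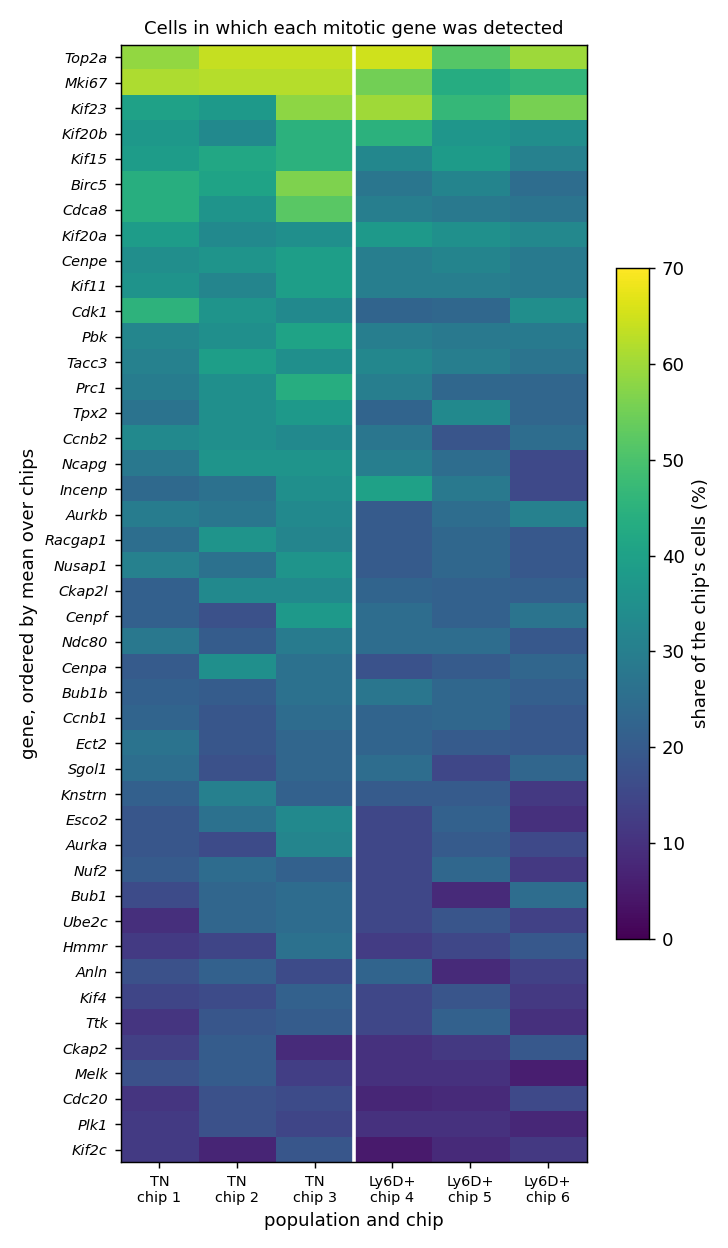
Share of cells (%) in which each of the 44 genes was detected, by chip; rows are genes in order of their mean over 6 chips, and columns are TN chips 1, 2 and 3 and Ly6D+ chips 4, 5 and 6. Top2a (60.4% on average) and Mki67 (55.1%) head the order, and most rows are darker on the right, where Birc5 lies between 25 and 31.7%, against 40.6 to 56.5% on the TN chips.

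Detection was lower in Ly6D+ than in TN cells, on the mean of chips, for 41 of the 44 genes (93.2%), against 37.4% of 4566 other genes detected in 20% or more of cells. Here and in the later shares of detection, that filter was not applied to the members, some of which, such as Plk1 and Kif2c, fell below it. For 13 members every Ly6D+ chip lay below every TN chip (29.5%, against 5.23% of the other genes), and for none did every Ly6D+ chip lie above (against 12.5%). The 13 came from 7 of the role groups and included Birc5 and Cdca8 of the passenger complex, which corrects faulty attachments. Birc5 (survivin) was detected in 44, 40.6 and 56.5% of the cells on TN chips and 27.5, 31.7 and 25% on Ly6D+ chips. Cdca8 (borealin) was detected in 44.1% ± 7.97 and 28.4% ± 1.54. Plk1, the kinase that matures spindle poles, was detected in 12, 17.4 and 14.5% against 10, 10 and 7.69%. The kinesin Kif23, which bundles microtubules between separating chromosomes, had the higher mean in Ly6D+ cells, with 40, 37.7 and 58% on TN chips and 60, 46.7 and 55.8% on Ly6D+ chips, which overlapped.

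By role, the detection of the other members was as follows, as means over 3 chips with the SD. Among genes of chromosome structure, the condensin subunit Ncapg was detected in 33.5% ± 4.75 in TN and 23.5% ± 7.43 in Ly6D+, Esco2 in 26.0% ± 7.33 in TN and 15.4% ± 6.04 in Ly6D+, and Sgol1, which protects cohesion at centromeres, in 22% ± 4.11 in TN and 21.0% ± 5.31 in Ly6D+. At the kinetochore, the motor Cenpe was detected in 36.7% ± 2.26 in TN and 30.2% ± 1.42 in Ly6D+, with chips apart. The microtubule-binding subunits Ndc80 (25.8% ± 4.76 in TN and 23.1% ± 3.33 in Ly6D+) and Nuf2 (22.1% ± 2.34 in TN and 16.6% ± 6.06 in Ly6D+) and Cenpf, a large protein of the outer kinetochore (25.5% ± 10.8 in TN and 24.5% ± 2.66 in Ly6D+) and Cenpa, the centromeric histone (27.0% ± 7.43 in TN and 20.2% ± 2.79 in Ly6D+) overlapped between populations. The checkpoint kinases Bub1 (21.3% ± 4.63 in TN and 16.1% ± 8.39 in Ly6D+), Bub1b (22.6% ± 3.09 in TN and 24.0% ± 3.22 in Ly6D+) and Ttk (16.6% ± 5.19 in TN and 15.4% ± 6.04 in Ly6D+) overlapped as well, and Bub1b was among the 3 members detected more often in Ly6D+ cells, with Kif23 and Kif20b. In the passenger complex, its kinase Aurkb was detected in 30.1% ± 2.97 in TN and 25.3% ± 5.39 in Ly6D+ and its scaffold Incenp in 28.3% ± 5.72 in TN and 27.9% ± 12.3 in Ly6D+, both with overlap, where Birc5 and Cdca8 had none.

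Among cyclin B and the kinases, Ccnb1 overlapped between populations and Ccnb2 did not. Ccnb1 was detected in 22% ± 2.95 in TN and 21.7% ± 2.17 in Ly6D+, and Ccnb2 in 33.8% ± 0.837 in TN and 23.6% ± 4.74 in Ly6D+. Cdk1, the kinase both activate, was detected in 38.3% ± 6.26 in TN and 26.8% ± 6.77 in Ly6D+, with the highest Ly6D+ chip (34.6%) above the lowest TN chip (33.3%). Aurka, the kinase of the spindle poles, was detected in 22.2% ± 8.53 in TN and 16.8% ± 2.78 in Ly6D+, Pbk in 35.8% ± 4.38 in TN and 29.1% ± 0.854 in Ly6D+ and the kinase Melk in 16.9% ± 3.64 in TN and 8.59% ± 2.44 in Ly6D+, the last 2 with chips apart. Of the anaphase-promoting complex, its activator Cdc20 was detected in 14.7% ± 3.54 in TN and 10.4% ± 4.33 in Ly6D+ and Ube2c in 19.1% ± 8.45 in TN and 15.6% ± 2.49 in Ly6D+. Among spindle proteins, Nusap1, which bundles microtubules, was detected in 31.0% ± 5.08 in TN and 20.9% ± 2.18 in Ly6D+ and Knstrn, which helps align chromosomes, in 24.5% ± 5.14 in TN and 17.2% ± 4.89 in Ly6D+, both with chips apart. Tpx2 (33.0% ± 5.71 in TN and 26.3% ± 6.09 in Ly6D+), Tacc3 (34.9% ± 4.23 in TN and 29.8% ± 2.79 in Ly6D+), Ckap2l (29.3% ± 6.93 in TN and 21.8% ± 0.679 in Ly6D+), Hmmr (17.5% ± 7.52 in TN and 15.6% ± 3.40 in Ly6D+) and Ckap2 (14.1% ± 5.84 in TN and 13.6% ± 4.92 in Ly6D+) overlapped. The kinesins Kif11 (35.7% ± 3.63 in TN and 29.6% ± 0.666 in Ly6D+) and Kif15 (41.9% ± 3.13 in TN and 33.9% ± 3.96 in Ly6D+) had chips apart, while Kif20a, which carries the passenger complex to the midzone, was detected in 35.6% ± 2.76 in TN and 35.1% ± 2.40 in Ly6D+, Kif20b in 38.5% ± 5.89 in TN and 38.8% ± 5.50 in Ly6D+ and the chromosome-bound Kif4 in 17.4% ± 3.77 in TN and 15% ± 3.40 in Ly6D+. Among cytokinesis genes, Racgap1 (31.1% ± 5.49 in TN and 20.9% ± 2.18 in Ly6D+) had chips apart, and Prc1 (35.9% ± 7.13 in TN and 25.5% ± 3.93 in Ly6D+), the exchange factor Ect2 (22.9% ± 3.92 in TN and 20.6% ± 1.71 in Ly6D+) and Anln (18.3% ± 3.03 in TN and 14.8% ± 7.17 in Ly6D+) did not.

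The level of the genes summed over a chip was compared next. Per kilobase of the deposited gene length, Top2a was the highest member at 182 CPM per kilobase (mean of 6 chips), followed by Ccnb2 at 112 and the kinase Pbk at 87.0, and Anln, a scaffold of the contractile ring, was the lowest at 9.57. In the edgeR quasi-likelihood test of Ly6D+ against TN, none of the 44 passed an adjusted p of 0.05 in either direction; of 11797 genes tested, 0.0932% were called higher and 0.11% lower. DESeq2 also called none of the 44, while it called 1.62% of all genes higher and 1.69% lower, and limma none, with 1.87% and 0.89% of all genes. At an unadjusted p under 0.05, 2 members were lower (4.55%, against 4.1% of all genes) and none was higher. Both the share past that threshold and the share whose chips did not overlap, 4 members lower (9.09%, against 7.73%), were near the background.

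The 4 members with chips apart were Kif15, Prc1, Ccnb2 and Pbk. Kif15, a kinesin that helps keep the spindle poles apart, stood at 163, 149 and 219 CPM on the TN chips and 124, 124 and 87.8 CPM on the Ly6D+ chips (log2 fold change -0.66 ± 0.28 SE, edgeR adjusted p = 0.58). Prc1, which holds the central spindle together, stood at 164, 180 and 212 CPM against 142, 101 and 113 CPM (-0.64 ± 0.26, edgeR adjusted p = 0.52). Ccnb2 stood at 171, 245 and 202 CPM against 168, 89.0 and 163 CPM, with the highest Ly6D+ chip close to the lowest TN chip. Pbk stood at 141, 165 and 168 CPM against 128, 129 and 127 CPM.

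Most fold changes were below 0 without passing the test. The log2 fold change was below 0 for 36 of 44 members (81.8%, against 49.1% of all genes), with a median of -0.33 against 0.01 over all genes. Over the alternatives the count below 0 ran from 30 to 41, and 18 members changed sign in at least 1 of them. All 7 cyclin and kinase genes and all 4 cytokinesis genes were below 0, with medians of -0.31 and -0.43, of which Ccnb1, Aurka, Anln and Ect2 changed sign under alternatives. The lowest were Bub1 (-0.92 ± 0.76), Esco2 (-0.84 ± 0.62), Aurkb (-0.79 ± 0.44) and Plk1 (-0.78 ± 0.56). Their size depended on single chips, though each stayed below 0 with any chip left out. With each chip left out in turn, Bub1 ran from -2.07 (without Ly6D+ chip 6) to -0.45 (without Ly6D+ chip 5). Esco2 ran from -1.36 (without Ly6D+ chip 5) to -0.22 (without TN chip 3). Aurkb ran from -1.11 (without Ly6D+ chip 5) to -0.40 (without TN chip 3) and Plk1 from -1.09 (without TN chip 1) to -0.30 (without TN chip 2). Above 0 were Bub1b (0.51 ± 0.38, and 0.17 without Ly6D+ chip 5), Cenpf (0.32 ± 0.27), and Incenp, Ckap2, Sgol1, Kif4, Top2a and Kif23, these last 6 with signs that changed under alternatives. Top2a (0.10 ± 0.25) and Kif23 (0.04 ± 0.22) did so when a single chip was left out. Among genes not in the list, 56 of 86 other mitotic genes and 33 of 48 G1/S genes were below 0, with medians of -0.21 and -0.16, and none of either list was called.

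**Figure D2:**
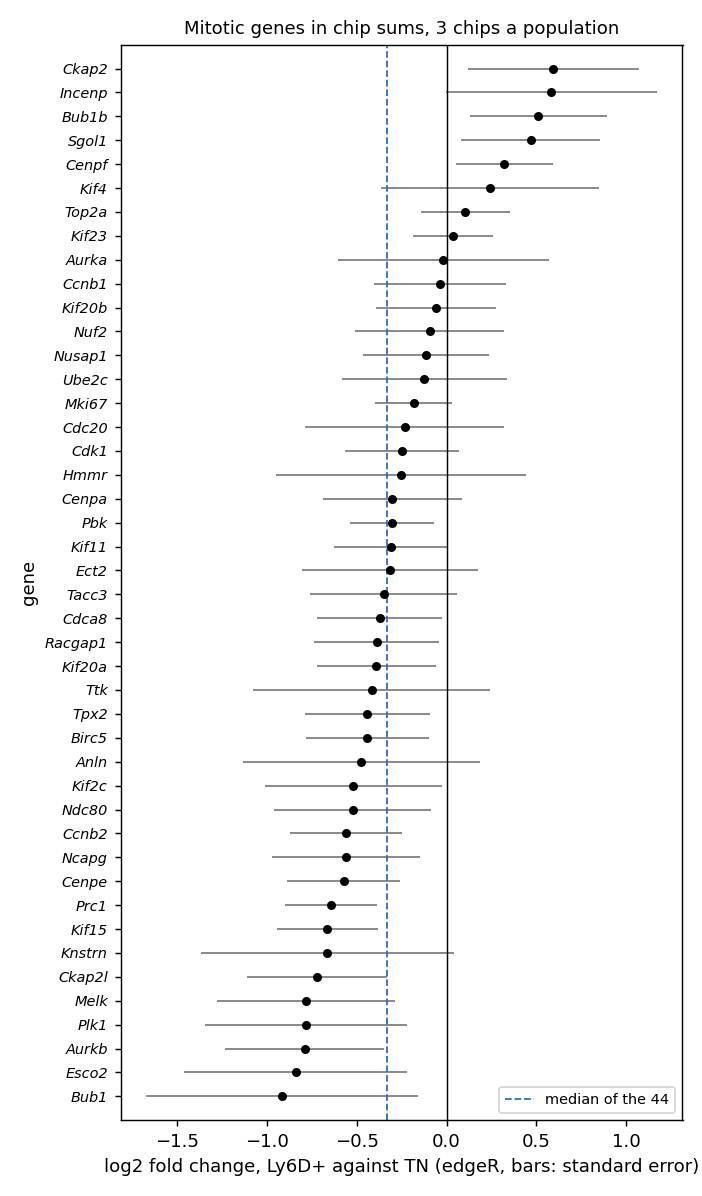
Log2 fold change of each member, Ly6D+ against TN, in edgeR's fit on sums of 3 chips a population; points are estimates, bars standard errors, and the dashed line is the median of the 44. Most points lie left of 0, around the median of -0.33, and their bars are wide, and none passed the test.

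The number of the 44 genes detected per cell was then counted. TN cells held 11.8, 12.6 and 14.3 mitotic genes on average on the 3 chips (12.9 ± 1.27), and Ly6D+ cells 11, 10.5 and 10 (10.5 ± 0.468). Medians lay further apart, at 8, 9 and 12 genes in TN cells and 5, 4 and 5.5 in Ly6D+ cells, with no overlap. Cells with at most 5 of the genes made up 37.0% ± 2.69 of TN cells and 55% ± 5 of Ly6D+ cells. Cells with 6 to 19 made up 35.6% ± 5.98 and 20.9% ± 6.93, and on each of these measures the chips of the populations did not overlap. Cells with 20 or more made up 22.7, 24.6 and 34.8% of TN cells and 22.5, 26.7 and 23.1% of Ly6D+ cells, which overlapped. The chips lay apart in the shares of cells with few or some of the genes and overlapped in the share with 20 or more. None of the genes was detected in 18 TN and 15 Ly6D+ cells, and the fullest cell, on Ly6D+ chip 4, held 42.

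**Figure D3:**
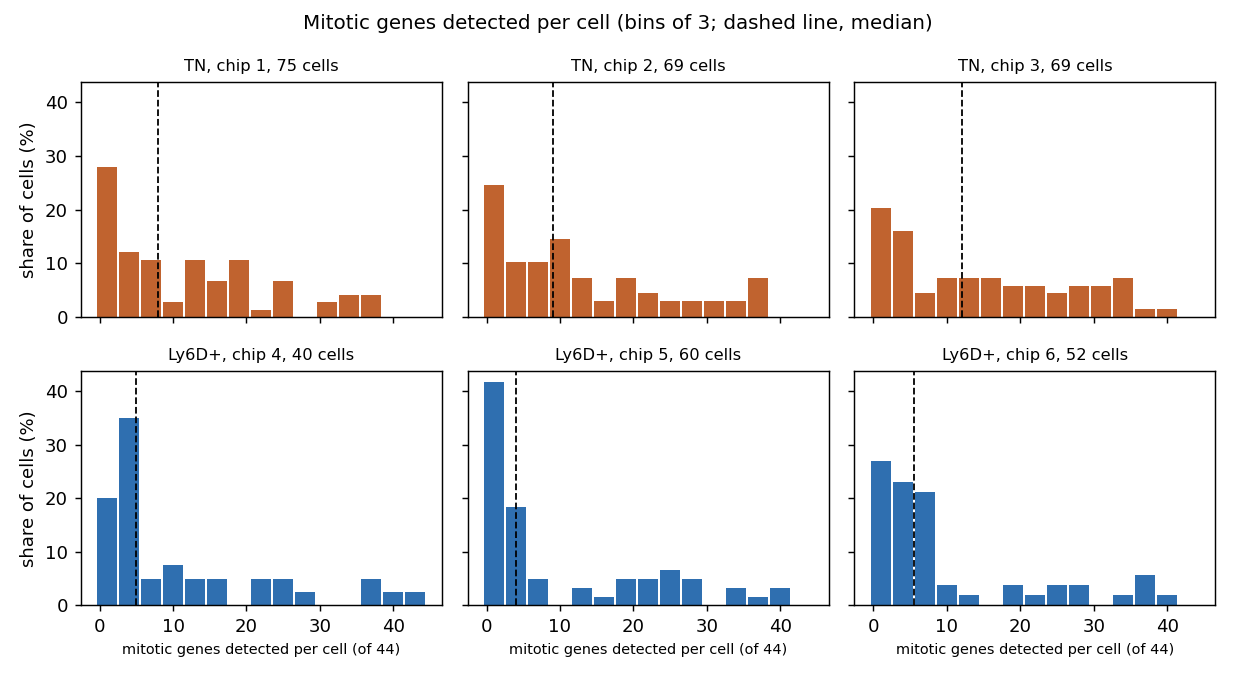
Mitotic genes detected per cell (of 44, in bins of 3) as a share of each chip's cells (%), with TN chips in the upper row, Ly6D+ chips in the lower row, and the median as a dashed line. Both populations have a long tail to the right, and the medians are 8, 9 and 12 in TN and 5, 4 and 5.5 in Ly6D+ cells.

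Reads of the genes were concentrated in few cells. The tenth of cells highest in them held 37.0% ± 4.32 of their reads on TN chips and 46.4% ± 6.24 on Ly6D+ chips. Cells with 20 or more of the genes also held more genes of every kind: a median of 3064 ± 182 detected genes against 1871 ± 72.9 in cells with at most 5 in TN, and 3219 ± 145 against 2491 ± 169 in Ly6D+. Within chips, the summed members correlated with the number of detected genes at a Spearman rho of 0.52 ± 0.12 in TN and 0.50 ± 0.03 in Ly6D+ cells, and with the read total at 0.09 and 0.10. The part of the number of detected genes in the relations below was not tested.

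By role, the mean number per cell was lower in Ly6D+ cells in all 9 groups. Cyclin B and the mitotic kinases gave 1.81, 1.78 and 1.91 of their 7 genes per TN cell and 1.38, 1.33 and 1.37 per Ly6D+ cell, with every Ly6D+ chip lower. The passenger complex gave 1.5 ± 0.242 of 4 and 1.10 ± 0.102, and cytokinesis genes 1.08 ± 0.0843 of 4 and 0.817 ± 0.115. Kinesins gave 2.27 ± 0.316 of 7 and 2.15 ± 0.0969, and the 3 checkpoint genes 0.604 ± 0.116 and 0.555 ± 0.0209, both with overlap between chips.

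The members varied together from cell to cell. Over the 946 pairs, the mean within-chip Spearman rho had a median of 0.46 and ran from 0.12 to 0.75, and 936 pairs were positive on all 6 chips. Pairs that share a role were no closer, with a median of 0.45 over 99 pairs. The closest pair was Birc5 with Tpx2, which starts microtubules around chromosomes (0.75). Set against the sum of the others, Birc5 (0.76), Top2a (0.73), Kif15 (0.72), Nusap1 (0.71) and Mki67 (0.71) followed most closely. Ckap2 (0.37), Anln (0.41) and Knstrn (0.44) followed least. Cells of a chip share its library preparation, and genes found in few cells are limited in rho by their zeros.

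Top2a was the widest of the genes. Of the 79 cells with Esco2, which joins sister chromatids in S phase, 98.7% also had Top2a, as had 97.8% of the 45 cells with Plk1 and 95% of the 120 cells with Pbk. The lowest share was that of Cenpa, with 76.1% of 88 cells. In reverse, 20% of the 220 cells with Top2a had Plk1 and 72.7% had Mki67.

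Outside the list, the genes most like the summed members over the 6 chips were Pclaf, a PCNA partner (mean rho 0.74), Hmgb2, a chromatin protein (0.71), the tubulins Tuba1b (0.70) and Tubb5 (0.68), Gm6682 (0.64), the ribonucleotide reductase subunit Rrm2 (0.64), the kinetochore scaffold Knl1 (0.63), Gm20756 (0.63), H2afz (0.63) and Cdca3 (0.63). The median of the 4566 genes was 0.11. Gm6682 followed Tuba1b over all cells (rho 0.76) and Gm20756 followed Pclaf (0.89), so counts of these pairs may be split between near-identical copies. Least alike were Rps27 (-0.34), Rps27rt (-0.34, itself close to Rps27 at 0.85), B2m of the MHC class I complex (-0.30), Rps14 (-0.30) and the histone demethylase Kdm5b (-0.26).

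Other lists of the cell cycle moved with the members to different degrees. The sum of 86 other mitotic genes followed them at 0.87 ± 0.05 in TN and 0.84 ± 0.01 in Ly6D+ cells, and the sum of 48 G1/S genes, which copy DNA, at 0.43 ± 0.18 and 0.47 ± 0.10. With at most 5 members, cells had Foxm1, which drives G2/M transcription, in 1.11% (TN) and 1.85% (Ly6D+), and with 20 or more in 43.5% and 56.7%. A list of 10 antiproliferative genes followed at -0.29 ± 0.04 and -0.23 ± 0.12, with Btg1 at -0.29 and Btg2 at -0.22 in TN cells. Its members did not move alike, since Cdkn2d, an inhibitor of Cdk4 and Cdk6, was positive (0.34 in TN, 0.29 in Ly6D+), as was Cdkn1a (0.24 and 0.13). A list of 5 genes of the D cyclins and their kinases had no common sign over chips (-0.28 to 0.35).

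Cells with few mitotic genes were compared between the populations. With at most 5 of the members, TN cells held 9, 10.4 and 10.1 of 48 G1/S genes and Ly6D+ cells 15.2, 13.4 and 16.2. The replicative helicase subunit Mcm6 was detected in 43.1% ± 7 of such TN and 76.8% ± 11.3 of such Ly6D+ cells. Uhrf1, which maintains DNA methylation, was detected in 38.6% ± 8.01 and 74.9% ± 2.10. Both are among the wider gaps of the G1/S list, whose genes did not move alike. Pcna was close between such TN and such Ly6D+ cells (means of 56.9 and 59.7%), as was Tk1 (17.5 and 17.8%). Pola1 (26.9 and 22.9%) and E2f8 (7.61 and 2.21%) had the lower mean in such Ly6D+ cells. Cdkn1a, the inhibitor p21, was detected in 12.1% ± 6.83 and 50.7% ± 4.57. Other antiproliferative genes went the other way, such as Cdkn1b (53% ± 14.4 and 34.1% ± 13.8) and Rbl2 (29.5% ± 6.34 and 17.6% ± 8.95). Of the 10 genes of that list, such TN cells held 3.16 ± 0.111 and such Ly6D+ cells 3.42 ± 0.442. These Ly6D+ cells also had more detected genes (2491 against 1871, above), whose part in this was not tested.

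In Ly6D+ cells, fewer mitotic genes were detected where Dntt was high. Dntt was detected in 97.5, 86.7 and 96.2% of the cells on Ly6D+ chips and 29.3, 34.8 and 26.1% on TN chips. Its within-chip rho with the summed members was -0.47, -0.37 and -0.31 on the Ly6D+ chips and -0.01, 0.03 and -0.07 on the TN chips, with no overlap; the difference between populations was not tested, and most TN cells tie at no Dntt. Among the 4566 genes, Dntt was the fifth from the lowest in Ly6D+ cells, and Gimap6, a GTPase of lymphocytes, was the lowest (-0.40, and -0.02 in TN).

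Ly6D+ cells above their chip's median of Dntt held 5.2, 7.47 and 6.77 mitotic genes, and those at or below it 16.8, 13.5 and 13.3. This split was chosen with these data in view and has no test. Detection was lower above the median on all 3 chips for 38 of 44 members (86.4%, against 12% of other genes) and higher on all 3 for none. Pbk was detected in 5, 13.3 and 15.4% of cells above the median and 55, 43.3 and 42.3% of the rest. Cdk1 was detected in 11.5% ± 4.66 and 42.2% ± 17. The 6 members without 1 direction on all 3 chips were Aurkb, Ckap2, Cdc20, Kif2c, Cenpa and Knstrn. Cells with 20 or more of the members made up 11.1% above the median and 37.1% of the rest. Medians of detected genes were also lower above the median of Dntt on each chip (2740, 2403.5 and 2884.5, against 2963.5, 2627 and 2922). The part of detected genes in this split was not tested.

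Sums of lymphoid genes were also negative in Ly6D+ cells, though not every gene in them was. The early lymphoid sum holds Dntt itself, so it repeats the relation above in part. The sum of 8 B lineage genes had a rho of -0.39, -0.42 and -0.47 with the members, and the sum of 7 early lymphoid genes, Dntt among them, -0.47, -0.58 and -0.34. Rag1 was detected in 48.8% ± 4.42 of Ly6D+ cells with at most 5 members and 15.7% ± 13.7 of those with 20 or more, and Rag2 in 40.7% ± 1.72 and 21.3% ± 4.24. On the same early lymphoid list, Ly6d, which defines the population, stood at 0.05 ± 0.07, the chromatin organiser Satb1 at -0.03, 0.02 and -0.05, and the receptor gene Il7r at 0.07, -0.62 and -0.27. In TN cells these sums had means of 0.02 and -0.02.

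**Figure D4:**
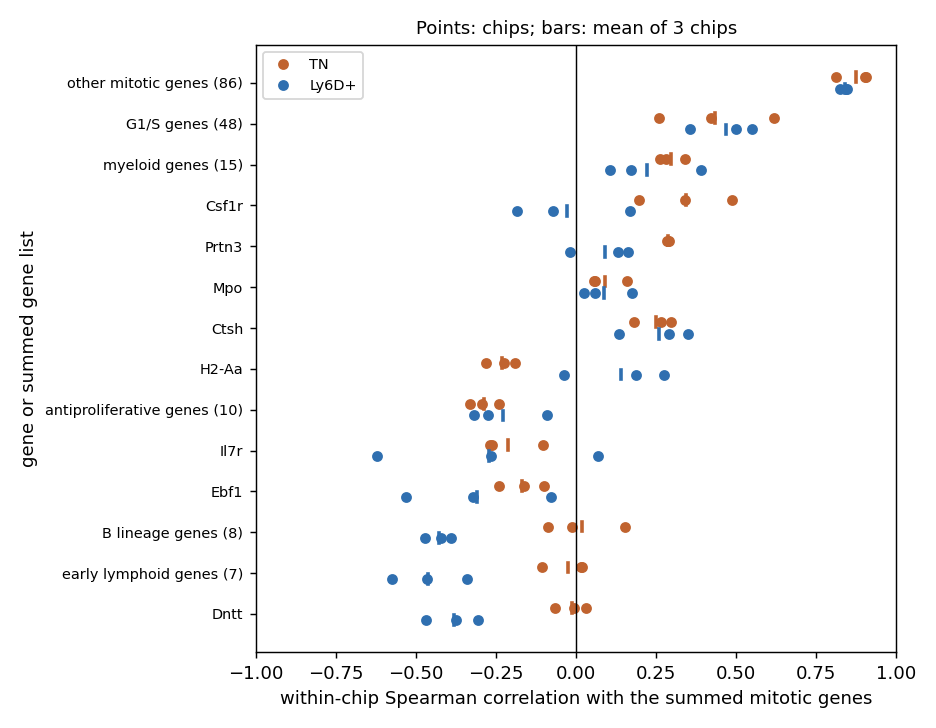
Within-chip Spearman correlation of the summed mitotic genes with genes and summed lists (the number of genes in brackets); each point is a chip, bars are means of 3 chips, and colours are TN and Ly6D+. Dntt, the early lymphoid and the B lineage genes lie between -0.58 and -0.31 on every Ly6D+ chip and between -0.11 and 0.15 on the TN chips.

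TN cells with Dntt held 11.6, 12.3 and 13.3 mitotic genes and those without 11.9, 12.8 and 14.6, lower with Dntt on each chip, with overlap between the classes. Cells with 20 or more made up 13.6, 16.7 and 33.3% of those with Dntt and 26.4, 28.9 and 35.3% of those without. The cells with Dntt had more detected genes of every kind on average (2780 ± 171 against 2534 ± 63.1), whose part in this was not tested. In sums over the cells of each class, with the chip as a block, edgeR called none of the 44 (0.0% of 10938 genes called higher and 0.0% lower), and DESeq2 called 1 lower, Racgap1 (4.38% of all genes), and limma none (3.91% of all genes higher, 1.17% lower). At an unadjusted p under 0.05, 3 were lower (6.82%, against 4.75%) and none higher. The log2 fold change was below 0 for 37 members (84.1%, against 55.6%), with a median of -0.58 against -0.13, and 14 were lower on all 3 chips (31.8%, against 18.4%) and 2 higher (4.55%, against 13.7%). By detection, 8 were lower on all 3 chips (18.2%, against 6.77% of other genes) and 5 were higher (11.4%, against 34.1%).

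Racgap1, which sets the plane of cytokinesis, stood at 175, 148 and 124 CPM in TN cells without Dntt and 72.2, 30.8 and 41.7 CPM in those with it (log2 fold change -1.71 ± 0.45, edgeR adjusted p = 0.506). Mki67 stood at 621, 827 and 627 CPM against 391, 245 and 424 CPM (-0.99 ± 0.29, edgeR adjusted p = 0.545). For both the classes did not overlap, as for 6 members lower with Dntt in all (13.6%, against 9.03% of all genes). Higher without overlap were 2 members (4.55%, against 6.03%). TN cells with Dntt also had less Ctsh (380, 357 and 420 CPM without Dntt, against 8.65, 32.3 and 103 CPM) and less Mpo (2453 ± 832 against 276 ± 131 CPM).

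TN cells with Ctsh held more mitotic genes than those without. The former, 31, 24 and 38 cells per chip, held 15.2, 15.5 and 17.4 of the genes, and the 44, 45 and 31 cells without it 9.39, 11.1 and 10.5, with no overlap. Cells with 20 or more made up 39.4% of the former and 18.3% of the latter. The number of detected genes did not move with this split in 1 direction (2653, 2510 and 2660 with Ctsh, 2826, 2729 and 2384 without). Detection was higher with Ctsh on all 3 chips for 31 members (70.5%, against 19.8% of other genes) and lower on all 3 for none.

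In sums over these classes, edgeR called no member and no gene at all (0.0% higher, 0.0% lower of 10942), not even Ctsh itself (adjusted p = 0.066). DESeq2 called 12 members higher (2.79% of all genes were) and limma 7 (1.24%). At an unadjusted p under 0.05, edgeR had 15 higher (34.1%, against 4.03%) and none lower. The fold change was above 0 for 41 members (93.2%, against 48.2%), with a median of 0.91 against -0.04, and 27 were higher on all 3 chips (61.4%, against 15.4%) and 2, Ect2 and Ckap2, lower (4.55%, against 15.9%). Of other mitotic genes 73 of 86 were above 0 (median 0.82), and of G1/S genes 33 of 48 (median 0.14).

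Top2a stood at 409, 704 and 785 CPM in TN cells without Ctsh and 1040, 1549 and 1376 CPM with it (log2 fold change 1.10 ± 0.17, edgeR adjusted p = 0.34). Racgap1 stood at 55.3, 59.1 and 42.1 CPM against 283, 201 and 151 CPM (1.99 ± 0.36, edgeR adjusted p = 0.34). Kif11, the motor that separates the spindle poles, stood at 94.7, 103 and 136 CPM against 217, 364 and 445 CPM (1.58 ± 0.28, edgeR adjusted p = 0.34). Ube2c, the ubiquitin-conjugating partner of the anaphase-promoting complex, stood at 4.48, 39.4 and 21.1 CPM against 65.5, 140 and 71.1 CPM. In each of these the classes did not overlap, as for 19 members higher with Ctsh in all (43.2%, against 7.11% of all genes). Anln (0.21 ± 0.61) and the kinetochore subunit Nuf2 (0.38 ± 0.46) differed by less than a standard error. Ect2 was lower with Ctsh, at 207, 120 and 88.6 CPM without and 58.3, 73.2 and 80.0 CPM with it (-0.89 ± 0.49, edgeR adjusted p = 0.77), with no overlap. Ect2 was the 1 member lower without overlap (2.27%, against 7.25% of all genes). Its detection did not follow its summed level, with 25.8, 29.2 and 23.7% of cells with Ctsh and 27.3, 13.3 and 22.6% without. Ckap2 stood at 38.2, 57.5 and 53.4 CPM against 7.06, 52.4 and 30.1 CPM (-1.12 ± 0.82), and Kif4 was the other member below 0 (-0.65 ± 1.35). TN cells with Ctsh held more Mpo (2989 ± 495 against 966 ± 483 CPM) and less Dntt (153 ± 58.4 against 1187 ± 315 CPM).

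Few Ly6D+ cells had Ctsh, 4, 9 and 5 per chip, and no test was run there. They held 21.8, 14.6 and 17.4 mitotic genes and the other Ly6D+ cells 9.78, 9.76 and 9.26. Their medians of detected genes were also higher on each chip (3008.5, 2623 and 3038, against 2769, 2425 and 2886). The part of detected genes here was not tested. Detection was higher with Ctsh on all 3 chips for 26 members (59.1%, against 15.2% of other genes). Within chips, Ctsh followed the summed members at 0.25 ± 0.06 in TN and 0.26 ± 0.11 in Ly6D+ cells.

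TN cells with the myeloid genes Mpo or Prtn3 also held more mitotic genes, 16.0, 17.4 and 16.6 against 7.49, 8.49 and 11.3 in TN cells without. They had more detected genes of every kind (2892 ± 92.1 against 2246 ± 36.9), and their part in this was not tested: detection was higher on all 3 chips for 39 members (88.6%) and for 61.2% of other genes. edgeR called none of the 44, while 0.0183% of 10954 genes were called higher (Mpo and Prtn3) and 0.0% lower. DESeq2 called 4 members higher (2.25% of all genes) and limma 31 (19.6%). At an unadjusted p under 0.05, 10 were higher (22.7%, against 2.93%) and none lower. The fold change was above 0 for 38 (86.4%, against 53.3%), with a median of 0.63 against 0.07, and 0.94 without TN chip 3, and 18 were higher on all 3 chips (40.9%, against 16.6%).

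Tacc3, which stabilises spindle microtubules, stood at 43.7, 45.7 and 38.5 CPM without these genes and 175, 139 and 123 CPM with them (log2 fold change 1.76 ± 0.42, edgeR adjusted p = 0.585). The checkpoint kinase Ttk stood at 3.26, 25.2 and 33.6 CPM against 53.1, 145 and 117 CPM (2.77 ± 0.69, edgeR adjusted p = 0.62). Bub1b stood at 14.8, 16.7 and 65.6 CPM against 164, 131 and 133 CPM. Mki67 differed between the measures: it was detected in 77.5% ± 7.67 of cells with Mpo or Prtn3 and 46.6% ± 5.83 of those without, yet its summed level was 592 ± 70.5 against 587 ± 116 CPM.

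The myeloid genes were not alike. In TN cells Prtn3 followed the summed members at 0.29, 0.29 and 0.28 and Csf1r, the receptor for M-CSF, at 0.49, 0.34 and 0.20, while Mpo stood at 0.09 ± 0.06 and Elane at 0.02 ± 0.06. Prtn3 was detected in 16.1% ± 6.74 of TN cells with at most 5 members and 62.0% ± 2.97 of those with 20 or more. The sum of 15 myeloid genes followed at 0.29 ± 0.04 in TN and 0.22 ± 0.15 in Ly6D+ cells, the latter 0.14 without chip 4. H2-Aa, an MHC class II gene of dendritic cells, went the other way in TN cells (-0.23 ± 0.05): cells with it held 6.45, 8.33 and 10.3 mitotic genes and cells without 13.7, 14.5 and 15.5. The cells with H2-Aa also had fewer detected genes of every kind (1883, 1841 and 2050.5 against 2863, 2806 and 2665). In Ly6D+ cells H2-Aa stood at 0.27, -0.04 and 0.19, with no common sign.

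Ctsh and the myeloid genes were also read together in TN cells. Among cells with Mpo or Prtn3, those with Ctsh held 17.6, 22.5 and 17.5 mitotic genes and those without 14.4, 13.9 and 15.3. Among cells with neither, the values were 11.4, 7.18 and 17.2 with Ctsh and 5.6, 9.04 and 5.33 without, so chip 2 went the other way. Medians of detected genes in these cells were 2210.5, 1841 and 2391 with Ctsh and 2218, 2363.5 and 1801 without. Their part in this was not tested. The classes of this double split held 11 to 26 cells per chip.

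**Figure D5:**
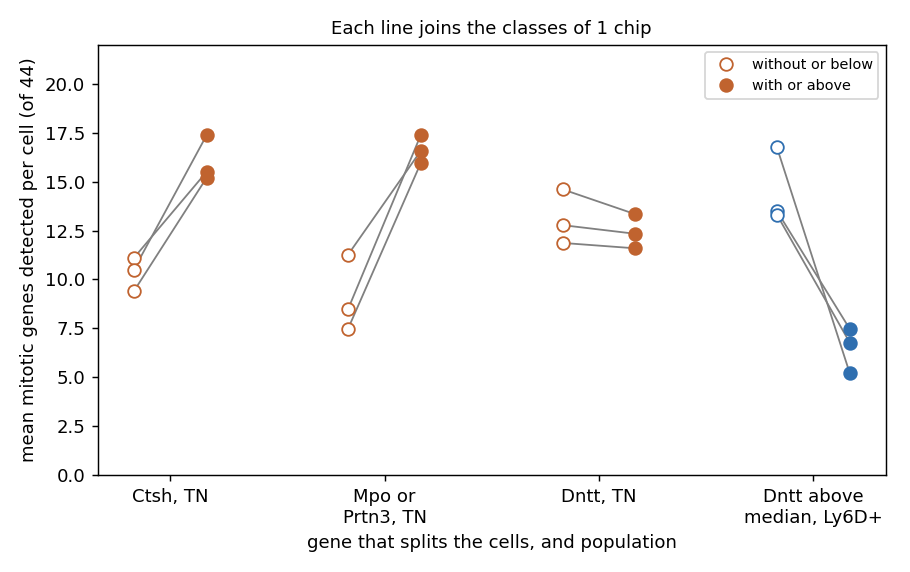
Mean number of the 44 mitotic genes detected per cell, by whether TN cells had Ctsh, Mpo or Prtn3, or Dntt, and by whether Ly6D+ cells lay above their chip's median of Dntt; each line joins the classes of a chip (open, without or below; filled, with or above). All 3 lines are higher on the right for Ctsh and for Mpo or Prtn3, those for Dntt in TN are slightly lower on the right, and those for Dntt in Ly6D+ cells go from between 13.3 and 16.8 to between 5.2 and 7.47.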

How the data were processed

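The 365 single-cell libraries come from Fluidigm C1 chips, with SMARTer amplification of full-length cDNA and Nextera XT, per the labels' protocols, and carry neither strand nor molecular identifiers. The authors deposited unnormalised read counts for each gene in each cell, beside a gene length in bases that is used here for values per kilobase. The genome build mm9 and R 3.2.0 are named in the submitters' processing notes, while the aligner was not given in the sources used here. Of 178 captured Ly6D+ and 232 captured TN cells, the submitters removed those under 60% mapped reads or 800 detected genes, per the labels. Doublet treatment is not given either, and no caller was run. Symbols of 23334 of the 23427 Entrez identifiers, and promoters, are from RefSeq GRCm38.p6, which is not the build of the counts. No column of the table was left unmapped.

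Counts were summed over each chip, or over each chip's cells in a class (with the gene at 5 or more of 200000 thinned reads, random seed 11), and tested with edgeR 4.0.16 (quasi-likelihood, TMM, filterByExpr, Benjamini-Hochberg adjusted p under 0.05), the class splits with the chip as a block. A split needed 5 cells per class on each chip. Standard errors come from the fold change and its F statistic. DESeq2 1.42.0, limma 3.58.1 on means of log2(CPM + 1), other scaling, filters, thresholds and leaving out each chip were alternatives. Scripts used R 4.3.3 and Python 3.11.15 and were tested on simulated data. The labels do not tie chips to separate mice, so the p-values rest on a spread over chips that may be technical in part or whole. The TN chips did differ in their mix of mice, since Xist was detected on chip 2 alone. No chip held both populations, and chip and population cannot be told apart.

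The members, the gene lists and the splits were chosen with earlier results of these data known. Named were all members, anchor genes (Dntt, Ctsh, Mpo, Prtn3, Elane, Csf1r, Ly6d, Il7r and others), up to 3 called genes per list, and the 10 most and 5 least alike genes with the same sign on all chips; other genes named were chosen after their values were seen. Correlations are within-chip Spearman coefficients of thinned reads, given as mean ± SD over 3 chips, as descriptions over cells of a shared chip. Of the lists, the conventional dendritic genes (10) followed the members at -0.18 in TN and -0.05 in Ly6D+ cells, plasmacytoid dendritic genes (7) at 0.07 and 0.04, T and NK genes (6) at -0.34 and -0.08, and megakaryocyte and mast cell genes (5) at -0.09 and -0.0019.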

Additional observations from a re-analysis of the deposited data

How the results depend on the processing

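In the edgeR fits, no member was called in any of the 4 comparisons under RLE scaling, without a filter on low counts, without cells under 1500 detected genes or with any chip left out, nor, in the 3 class splits, with classes set at 1 thinned read or without the replicate block. DESeq2 called 1 member lower with Dntt, 12 higher with Ctsh and 4 higher with Mpo or Prtn3, and limma called 7 with Ctsh and 31 with Mpo or Prtn3, where its median log2 fold change of the members was 1.43; the cause was not tested. The median log2 fold change of the members kept its sign under every alternative run: -0.46 to -0.22 for Ly6D+ against TN, -0.59 to -0.25 for Dntt, 0.74 to 1.24 for Ctsh and 0.49 to 1.43 for Mpo or Prtn3. In Ly6D+ against TN, Top2a reversed to -0.41 in limma, and with single chips left out Top2a ran from -0.088 to 0.26 (-0.088 without TN chip 1, -0.0092 without Ly6D+ chip 4) and Kif23 from -0.10 to 0.13 (-0.04 without TN chip 1, -0.10 without Ly6D+ chip 5). Members detected per cell moved with the threshold by construction, to 15.7 (TN) and 13 (Ly6D+) at 1 thinned read and 11.4 and 9.24 at 10, with TN above Ly6D+ each time. The correlation with the myeloid sum in TN cells was 0.37 against the number of members detected and 0.25 without cells under 1500 detected genes. The fit of Ctsh in Ly6D+ cells, and with it the difference between populations, was not run, because the smallest class held 4 cells. Leaving out the cells with Xist was chosen after seeing the data and kept the TN value within the spread of chips. Depth limits the rarer members, since Plk1 had a read in 69 cells and was detected in 45 of them, and Kif2c in 60 and 40.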
